A study of Mus musculus with 6 samples.

Results

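The angiopoietin and Tie receptor genes were described by the open chromatin around them in mouse lung endothelial cells. The set holds 4 genes: the receptors Tek (also called Tie2) and Tie1, and the ligands Angpt1 and Angpt2. Of 58172 regions in the deposited table, 27 belonged to these genes. Tek had 7 of them, Tie1 2, Angpt1 5 and Angpt2 13. A region belonged to a gene if the table gives that gene's symbol (5 regions), or if the table gives the region no gene and the nearest protein-coding start site within 100 kb is that gene's (22 regions). Distance alone says nothing of which gene a region acts on. The set was chosen by the measured values of its receptor promoters, which lay in opposite directions from wild type. The difference between the groups is therefore given for the 27 regions as a description, without p-values. Calls among them are counted and named, and nothing is read from them.

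The assay was ATAC-seq, which uses the Tn5 transposase to cut open DNA and to leave sequencing adapters there. Of the 6 libraries, 3 came from cells of Cre-negative wild-type mice (WT) and 3 from cells of Cre-positive mice without cystathionine gamma-lyase, which is encoded by Cth (CSE-KO). All 6 are labelled as lung endothelial cells. No sex or age of the mice, no driver of Cre and no deleted part of Cth is given in the sources used here. Cre and the loss of the enzyme cannot be told apart, since each CSE-KO library carries both.

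TEK and TIE1 are receptor tyrosine kinases found mostly on endothelium. ANGPT1, made largely by mural and other mesenchymal cells, activates TEK and keeps vessels quiescent. ANGPT2, stored and released by endothelial cells, can oppose it or act as a weak activator. TIE1 has no such direct ligand among the angiopoietins and modulates TEK through complexes with it. Downstream, AKT signalling keeps FOXO1 out of the nucleus, and Angpt2 is a known FOXO1 target.

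The promoter sequences of both receptors are shown because their promoters carry the contrast. They are the 250 bases before a start site in RefSeq's promoter table for build GRCm38.p6, the assembly that mm10 names, read 5′ to 3′ on the gene's strand. Both lie inside the ATAC region of their promoter. Capitals mark the core of ETS-factor sites, GGAA on either strand. ETS factors are a family of transcription factors with endothelial members such as Ets1 and Fli1.
Tek, plus strand of chr4:94739039-94739288: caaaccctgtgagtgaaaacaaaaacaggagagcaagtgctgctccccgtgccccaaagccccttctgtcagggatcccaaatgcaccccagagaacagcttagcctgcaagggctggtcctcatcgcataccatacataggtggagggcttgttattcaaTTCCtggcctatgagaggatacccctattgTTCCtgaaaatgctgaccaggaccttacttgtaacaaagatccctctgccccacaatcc
Tie1, minus strand of chr4:118489850-118490099: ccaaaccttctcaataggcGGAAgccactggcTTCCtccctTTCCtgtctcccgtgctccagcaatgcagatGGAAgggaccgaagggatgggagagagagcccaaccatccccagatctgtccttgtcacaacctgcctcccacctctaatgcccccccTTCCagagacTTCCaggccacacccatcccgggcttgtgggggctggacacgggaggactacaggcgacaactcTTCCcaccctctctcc

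The Tie1 sequence held 7 GGAA cores and the Tek sequence 2. Among 32851 start-site windows of this length, 93.4% held at least 1 core, with a median of 3, and 3.82% held 7 or more. Further motifs were searched on both strands. AACAAT, a SOX-type motif, was present 1 time in Tek and absent from Tie1 (9.42% of windows hold it). CACCC, bound by KLF factors, was present 1 time in Tek and 2 times in Tie1 (52% of windows). Neither window had a match to the type bound by GATA factors, spelled AGATAA (9.99% of windows), to the forkhead type GTAAACA (3.17%) or to the AP-1 type TGANTCA (6.75%). In Tek the SOX-type match shares bases with a GGAA core, and no other matches of different motifs overlap. The Tie1 window had a GC content of 60.4% and 6 CpG pairs, the Tek window 51.2% and 2, and the median window had 6 CpG pairs. A letter match is a description and not a binding site. For Tie1 the deposited table puts the start site 212 bp farther upstream than RefSeq does, so part of the printed Tie1 window is transcribed by the table's annotation. For Tek the RefSeq gene span begins 203 bp upstream of the start site used, so most of the printed Tek window lies inside that span.

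By their spacing and totals the values are read counts that were normalized and then rounded to whole numbers, and they are called deposited values below. They summed to between 5242490 and 5547417 per library. In the CSE-KO columns a read was worth about 1.54 to 1.64, which gives an estimated 3320000 to 3610000 reads in regions, while in the WT columns every whole number up to 100 occurs, so that a read was worth about 1 or less. The CSE-KO values of weak regions therefore carry more counting error. Cth itself had promoter values of 195, 157 and 167 in WT against 11, 6 and 2 in CSE-KO, so no library went against its label there. Of 10 endothelial markers, 7 had a promoter region, with summed values of 937 to 1000 in WT and 1025 to 1149 in CSE-KO, and of these 1 was called higher and 1 lower. The summed values were 250 to 277 and 213 to 292 for 5 of 10 mural markers, none of them called. For 3 of 10 lung epithelial markers, of which 1 was called higher, they were 165 to 195 and 149 to 212. All 4 lymphatic markers had a promoter region, none of them called, with sums of 757 to 917 and 759 to 857. Of the fibroblast markers only Col1a1 had a promoter region, with 56 to 74 in WT and 110 to 163 in CSE-KO, called higher. Of the leukocyte markers only Spi1 had one, with 155 to 194 and 91 to 106, called lower. The endothelial sum, whose promoters were called in both directions, and the Col1a1 value thus lay higher in every CSE-KO library. The Spi1 value lay lower in each, and the part of these markers in the results below was not tested. In bulk cells, fewer cells of a type and less open chromatin per cell cannot be told apart.

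The promoter of Tek was more open in CSE-KO and the promoter of Tie1 less open, while those of both ligands overlapped between the groups. The Tek promoter region (ENSMUSG00000006386), chromosome 4 from 94738705 to 94739894 and spanning the start site, had 147, 188 and 153 in WT against 276, 234 and 290 in CSE-KO. Every CSE-KO library lay above every WT library. The means were 163 ± 22.1 and 267 ± 29.1 (SD, n = 3 each), a difference of 0.71 ± 0.18 (log2, SE) or 1.64-fold. Differences are CSE-KO minus WT on log2(value + 1), a scale that understates the change of weak regions.

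The Tie1 promoter region (ENSMUSG00000033191), chromosome 4 from 118489526 to 118490252, had 170, 164 and 154 in WT against 65, 84 and 54 in CSE-KO. Here every CSE-KO library lay below every WT library. The means were 163 ± 8.08 and 67.7 ± 15.2, a difference of -1.28 ± 0.20 or 2.42-fold lower. Both genes lie on chromosome 4, and the values of both promoter regions were alike in WT and apart in CSE-KO.

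**Figure D1:**
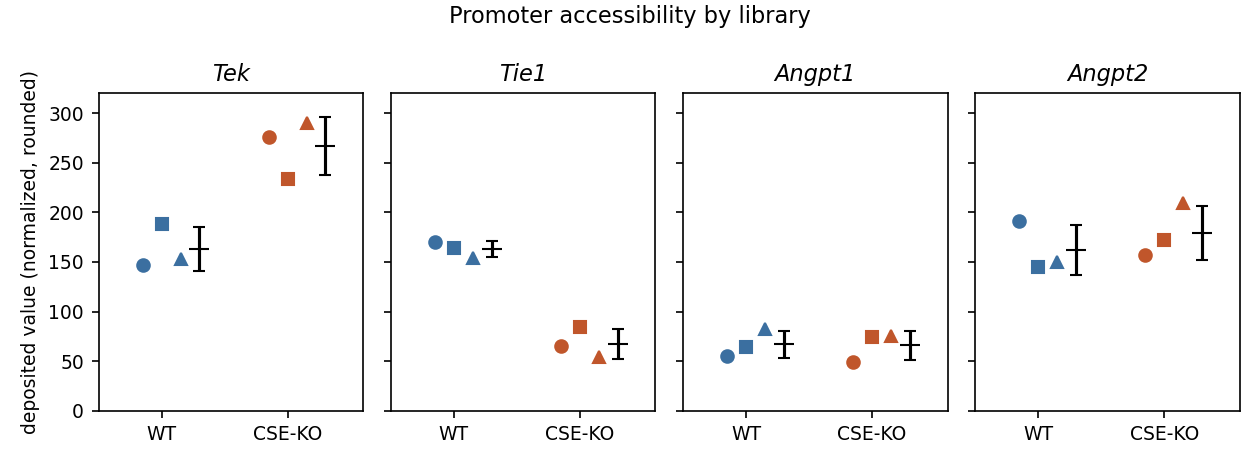
Deposited values (y axis, normalized and rounded) at the promoter regions of Tek, Tie1, Angpt1 and Angpt2 in the WT and CSE-KO libraries. Circles, squares and triangles are replicates 1, 2 and 3, and black bars give the mean and SD (n = 3). For Tek the CSE-KO values of 234 to 290 lie above WT, for Tie1 those of 54 to 84 lie below, and for both ligands the groups overlap.

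Set against each other within a library, the values of both receptor promoter regions were level in WT and far apart in CSE-KO. The Tek region is wider (1190 against 727 bp). Per 100 bp, Tie1 stood above Tek in WT (22.4 ± 1.11 against 13.7 ± 1.86, SD), so level here refers to the values alone. The ratio of the Tek to the Tie1 value was 0.865, 1.15 and 0.994 in WT against 4.25, 2.79 and 5.37 in CSE-KO. This is a log2 gap of -0.01 ± 0.20 in WT against 1.98 ± 0.47 in CSE-KO (SD, n = 3 each), which differ by 1.99. The lowest CSE-KO ratio, that of replicate 2, had both the lowest Tek and the highest Tie1 value of its group. A ratio within a library does not depend on how libraries were scaled. It shows unequal change and not which of the genes changed.

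Among the 13246 promoter regions (centre within 1 kb of a start site) the difference at Tek was exceeded by 881 (6.65%), and the difference at Tie1 was lower at 124 (0.936%). The median promoter difference was 0.11. Between the groups 23.9% of all promoter regions had every CSE-KO library above WT, as Tek did, and 12.1% every one below, as Tie1 did. At an adjusted p below 0.05 in limma (Benjamini-Hochberg over 58129 regions), 5.23% of promoter regions were called higher, 3.29% lower and 8.52% in either direction. Nothing is read from the place of Tek and Tie1 among them, since both were picked for it.

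**Figure D2:**
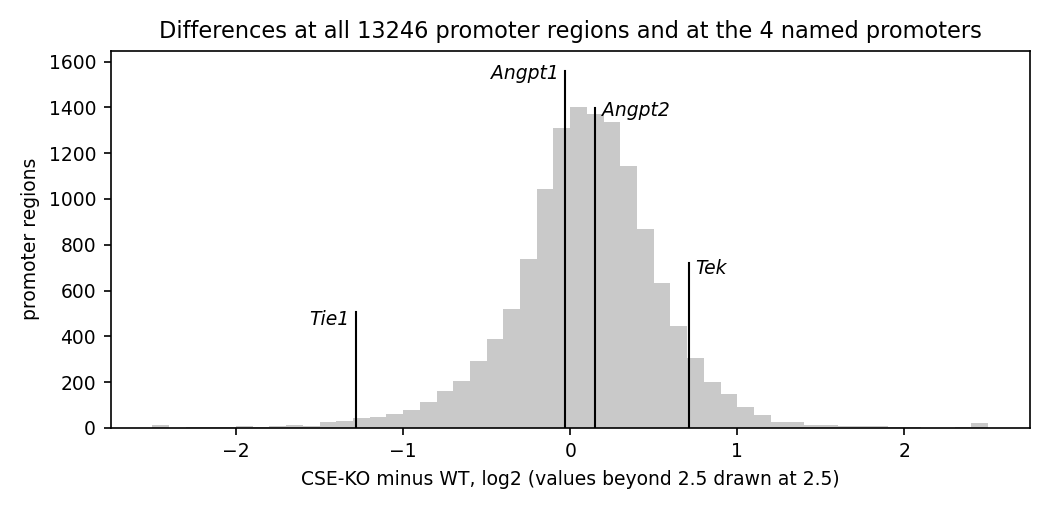
Histogram of the CSE-KO minus WT difference (x axis, log2) over the 13246 promoter regions (y axis, number of regions), with lines at the promoters of Tie1, Angpt1, Angpt2 and Tek. Tie1 at -1.28 lies in the lower tail and Tek at 0.71 on the upper flank, while Angpt1 at -0.03 and Angpt2 at 0.15 lie near the median of 0.11.

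The ligand promoters showed no such contrast. The Angpt2 promoter region (ENSMUSG00000031465), chromosome 8 from 18741159 to 18741725, had 191, 145 and 150 in WT against 157, 172 and 210 in CSE-KO. The groups overlapped, with a difference of 0.15 ± 0.20. The Angpt1 promoter region (ENSMUSG00000022309), chromosome 15 from 42676095 to 42676490 and 0.684 kb into the gene, had 55, 64 and 82 in WT against 49, 74 and 75 in CSE-KO. Its difference was -0.03 ± 0.24, and leaving out single libraries or rescaling moved it between -0.16 and 0.17.

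Per length, the order of the 4 promoters differed between the groups. In WT the level per 100 bp was 28.6 ± 4.45 at Angpt2, 22.4 ± 1.11 at Tie1, 16.9 ± 3.47 at Angpt1 and 13.7 ± 1.86 at Tek (SD, n = 3 each). The libraries of Angpt1 and Tek overlapped, and the other neighbours in this order did not. In CSE-KO it was 31.7 ± 4.82 at Angpt2, 22.4 ± 2.45 at Tek, 16.7 ± 3.72 at Angpt1 and 9.31 ± 2.09 at Tie1, and no neighbours overlapped. Tek thus stood last in WT and next to Angpt2 in CSE-KO, and Tie1 took the reverse place. Among all promoter regions, 33.1% lay below Tek per length in WT and 58.8% in CSE-KO, and for Tie1 the shares were 66.2% and 14.1%. Levels per length depend on how wide each region was drawn (1190 bp at Tek, 727 at Tie1, 567 at Angpt2 and 396 at Angpt1).

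Away from its promoter, Tek was less open in CSE-KO. All 6 other Tek regions lie within the gene, 7.4 to 93.4 kb past the start site, and all had a difference below 0, from -0.20 to -0.97. The sign of each stayed the same under all settings it entered. The filters, the limma options and the replicate block cannot move it, so this is no test of stability. The region 37.4 kb in (94776340 to 94776986) had 196, 139 and 155 in WT against 83, 106 and 72 in CSE-KO, with every CSE-KO library below WT and a difference of -0.90 ± 0.22. The region 29.6 kb in (94768558 to 94769156) had 86, 70 and 73 against 64, 66 and 30. Its CSE-KO values were also all below WT, with replicate 3 much the lowest, and the difference was -0.59 ± 0.32.

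The other 4 Tek regions overlapped between the groups. The strongest distal region of the gene in WT, 13.4 kb in, had 243, 214 and 226 in WT against 167, 218 and 171 in CSE-KO (-0.30 ± 0.18). That at 7.4 kb had 145, 133 and 110 against 116, 106 and 113. The weak regions at 87.9 and 93.4 kb had 8 to 40 in WT against 2 to 29 in CSE-KO, few reads on which to place a difference.

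With promoter and gene body on opposite sides, the sum over all Tek regions was closer between the groups than its parts. It was 846, 779 and 772 in WT against 742, 746 and 693 in CSE-KO. Without the promoter it was 699, 591 and 619 in WT against 466, 512 and 403 in CSE-KO. The promoter held 17.4%, 24.1% and 19.8% of the sum in WT against 37.2%, 31.4% and 41.8% in CSE-KO, with no overlap.

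Tie1 had just 1 region besides its promoter, and both were less open in CSE-KO. The region from 118465745 to 118466114, 24.1 kb past the start site and beyond the gene's end, had 42, 44 and 46 in WT against 31, 14 and 23 in CSE-KO. Every CSE-KO library lay below WT, with a difference of -0.99 ± 0.28. Within 100 kb of the Tie1 start site lie 11 further regions that belong to other genes or to none, with a median difference of -0.21, of which limma called 1 higher and 2 lower. The promoters of its neighbours Cdc20, Elovl1 and Med8 had differences of -0.19 ± 0.21, -0.09 ± 0.16 and -0.21 ± 0.16, and their groups overlapped. That of Tmem125, a weak region, had 9, 19 and 7 in WT against 21, 21 and 18 in CSE-KO. Its difference was 0.84 ± 0.34, and its groups also overlapped.

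**Figure D3:**
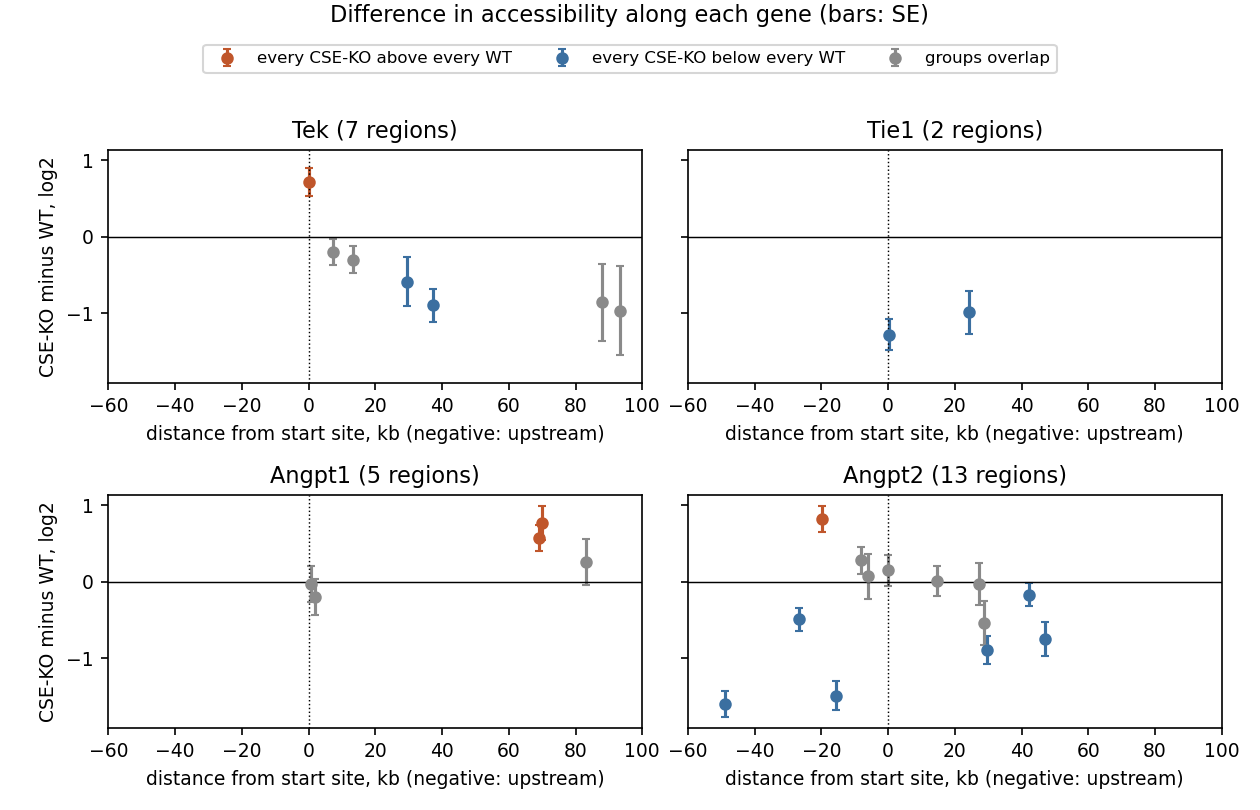
Difference of each region (y axis, CSE-KO minus WT, log2, bars SE) against its distance from the start site (x axis, kb, negative upstream) for Tek, Tie1, Angpt1 and Angpt2. Orange marks regions with every CSE-KO library above WT, blue every one below, and grey an overlap. At Tek the promoter lies above 0 and the 6 regions in the gene below it, while Angpt2 has regions on both sides.

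Angpt2 had the most regions and the largest differences of the set, all of them away from its promoter. The gene lies inside the span of Mcph1, a DNA damage response gene, as RefSeq draws it, and all 13 of its regions overlap that span, so they could as well be assigned to Mcph1. Upstream, the region 48.9 kb from the start site (18790149 to 18790864) had 189, 176 and 161 in WT against 60, 51 and 61 in CSE-KO. Its difference was -1.60 ± 0.17, 3.03-fold lower. The region 15.6 kb upstream (18756782 to 18757498) had 264, 234 and 248 in WT against 83, 75 and 108 in CSE-KO, a difference of -1.49 ± 0.19 or 2.81-fold lower. In both, the groups were far apart.

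Between these, the region 19.9 kb upstream (18761243 to 18761586) went the other way. It had 58, 64 and 56 in WT against 93, 121 and 103 in CSE-KO, so every CSE-KO library lay above WT (0.82 ± 0.17). The strongest region of the set, 26.8 kb upstream and 1458 bp wide, had 658, 610 and 585 in WT against 412, 452 and 454 in CSE-KO (-0.49 ± 0.15). Regions that lie apart by a few kb upstream of Angpt2 thus differed in direction. The remaining upstream regions, at 6.11 and 7.96 kb, overlapped between the groups (0.07 ± 0.29 and 0.28 ± 0.18).

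Within the Angpt2 gene, 3 of 6 regions had every CSE-KO library below WT, as 20.5% of all regions did. That 29.6 kb in (18711712 to 18712239) had 207, 233 and 233 in WT against 113, 144 and 108 in CSE-KO (-0.89 ± 0.18). That 47.1 kb in, near the 3' end (18694203 to 18694794), had 277, 218 and 221 against 181, 123 and 125 (-0.75 ± 0.22). That 42.1 kb in had 187, 170 and 165 against 160, 146 and 156, a small difference of -0.17 ± 0.15. The other 3, at 14.7, 27.3 and 28.7 kb, overlapped, with differences of 0.01, -0.03 and -0.54. For the first 2 of these the sign changed under 4 and 2 of 16 settings.

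The sum over all Angpt2 regions was 2418, 2225 and 2167 in WT against 1691, 1617 and 1638 in CSE-KO. The promoter held 7.9%, 6.52% and 6.92% of it in WT, and in CSE-KO it held 9.28%, 10.6% and 12.8%. As at Tek, the promoter's share was higher in every CSE-KO library, but here the promoter's own value overlapped between the groups.

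**Figure D4:**
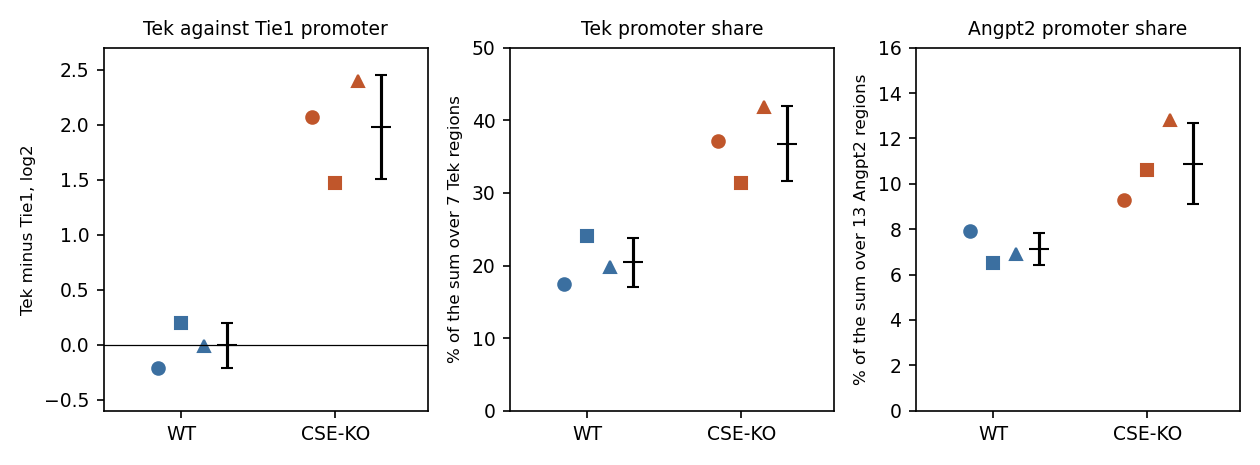
Left, log2 gap between the Tek and Tie1 promoter values in each library. Middle and right, the promoter's percentage of the sum over the 7 Tek and the 13 Angpt2 regions. Symbols are replicates 1 to 3 (circle, square, triangle) and black bars mean and SD (n = 3). The gap lies near 0 in WT and between 1.47 and 2.4 in CSE-KO, and both shares drawn are higher in every CSE-KO library. The shares of Tie1 and Angpt1, which are not drawn, overlap between the groups.

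Angpt1 was the gene of the set whose sum of values away from the promoter was higher in CSE-KO, 323, 266 and 300 against 217, 211 and 220 in WT. Its regions at 69.1 and 69.9 kb within the gene lie 400 bp apart and may be parts of 1 site. The first (42607597 to 42608106) had 76, 92 and 82 in WT against 140, 110 and 123 in CSE-KO (0.57 ± 0.17). The second (42606882 to 42607197) had 68, 50 and 51 against 121, 83 and 87 (0.77 ± 0.22). In both, every CSE-KO library lay above WT. The region at 83.1 kb had 17 to 30 against 18 to 34, and that 1.96 kb from the start site 50 to 57 against 34 to 56, and both overlapped. The Angpt1 sum was 272, 275 and 302 in WT against 372, 340 and 375 in CSE-KO. Angpt1 is known mainly as a gene of mural and mesenchymal cells, and the mural promoter sums given above overlapped between the groups, while Col1a1 was higher in CSE-KO. Whether other cells add to the Angpt1 values was not tested.

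The limit of 100 kb sets which regions belong. The farthest region inside it is that of Tek at 93.4 kb, with 18, 27 and 40 in WT against 29, 5 and 15 in CSE-KO. The nearest outside it lies 167 kb into Angpt1, with 151, 154 and 145 in WT against 150, 104 and 108 in CSE-KO. No region lies between these distances, so the limit could be moved there without a change to the set.

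All 27 regions passed the filter on low values (a mean of at least 5). In the fit over the whole table, 7 of them (25.9%) were called, 2 higher and 5 lower, against 17.3% of all 58129 regions (7.70% higher and 9.60% lower). The calls were the promoters of Tek and Tie1, the Tek region 37.4 kb in, and 4 Angpt2 regions, at 48.9, 19.9 and 15.6 kb upstream and 29.6 kb in. Those of the Tek promoter and the Tek region 37.4 kb in were lost under 6 of 16 settings, namely without WT replicate 1, 2 or 3, without CSE-KO replicate 1 or 3, and with a replicate block. The Angpt2 calls at 19.9 kb upstream and 29.6 kb in were lost without WT replicate 1, 2 or 3, and the former also with the block. The Tie1 promoter and the Angpt2 regions at 48.9 and 15.6 kb upstream were called under all 16. Of the 23 distal regions, 1 was called higher and 4 lower, where 8.43% and 11.5% of all distal regions were, or 19.9% in either direction. The groups did not overlap at 14 of the 27, 4 with CSE-KO above and 10 below, against 39.5% of all regions (19.0% above and 20.5% below). The median difference was -0.20 over the 27 regions, -0.30 over the 23 distal ones and -0.06 over all distal regions of the table. These counts, the named calls and the settings that lost them rest on the contrast that chose the set and are not read further. Without WT replicate 1, 2 or 3, just 3 of the 27 were called each time, all lower.

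Promoters most like those of the receptors were looked up among 11108 promoter regions with a gene symbol, by the Euclidean distance of log2(value + 1) over the 6 libraries. Nearest to Tek were Nyap1 (distance 0.243, mean 169 in WT and 270.3 in CSE-KO), Mark2 (0.28, 170.3 and 269) and Taf3 (0.301, 164 and 253). Nearest to Tie1 were Zik1 (0.423, 151 and 79), Pla1a (0.534, 195 and 74) and Zmat1 (0.562, 154 and 74). The nearest promoters to Tek lay closer to it than those to Tie1 did. The measure takes in level and difference together, so it returns promoters that share both.

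The wider pathway was read from 37 genes in 5 groups, of which 31 had a region, 170 regions in all. Of these 13 rose and 10 fell in CSE-KO, 13.5% against 17.3% of all regions (7.70% higher and 9.60% lower), and 147 did not pass (limma, Benjamini-Hochberg adjusted p below 0.05 over the whole table). The median difference was -0.03. Of 32 promoter regions in the list 3 rose and 0 fell, where 5.23% of all promoter regions were called higher and 3.29% lower. The split of 13 and 10 became 19 higher and 25 lower with trend and robust options in limma, 16 and 19 with a mean of at least 20, and 15 and 19 with a pseudocount of 8. Without WT replicate 1, 2 or 3 the count of 23 became 9, 8 and 6, and with the deposited gene symbols alone it was 6.

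For partners of the receptors at the cell surface the share of regions called was near that of the whole table, and nothing is read from it. Of 52 regions of Ptprb (the phosphatase VE-PTP, which dephosphorylates TEK), the integrins and Adam17, 3 rose and 5 fell. This is 15.4% called against 17.3% of all regions, with a median difference of -0.21. All calls were at integrin genes, and none of the 6 promoter regions was called. The region 27.0 kb upstream of Itga5, the fibronectin receptor chain, rose from 13, 9 and 9 in WT to 44, 54 and 46 (limma adjusted p = 0.00292). A region 18.8 kb upstream of Itgb1, its partner chain, rose from 57, 56 and 79 to 186, 162 and 213 (limma adjusted p = 0.00634). A region 22.4 kb into Itgb3, the chain that pairs with the alpha-v integrin, rose from 35, 29 and 24 to 75, 72 and 98 (limma adjusted p = 0.00767). The groups were apart in all 3. The 5 falls were at integrin genes too. At Itgb1 a region 22.4 kb upstream fell from 203, 224 and 195 to 131, 129 and 112 (limma adjusted p = 0.0245). At Itgb3 a region 10.8 kb in fell from 192, 194 and 182 to 91, 141 and 98, and one 17.2 kb in from 403, 359 and 354 to 253, 234 and 246 (limma adjusted p = 0.039 and 0.0389). Itgav, the alpha-v chain, had falls at 9.56 kb upstream, from 102, 116 and 105 to 82, 55 and 52, and at 5.11 kb in, from 173, 168 and 160 to 105, 89 and 77 (limma adjusted p = 0.0458 and 0.0179). Each of these 5 calls was lost without WT replicate 1, 2 or 3, and further without CSE-KO replicate 3 at Itgb1, replicate 1 or 3 at the first Itgb3 region, any of the 3 at the second, and replicate 2 or 3 at the upstream Itgav region (highest limma adjusted p = 0.142). These falls are outside the naming rule and were chosen after their values were seen. The Ptprb promoter had 64, 66 and 67 in WT against 42, 47 and 46 in CSE-KO, with every CSE-KO library below WT, but did not pass (limma adjusted p = 0.0513). It is outside the naming rule and was chosen after its values were seen, as the receptor's phosphatase.

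Among ligands and extracellular partners, only Lect2, a secreted protein that binds TIE1, had regions. Of 4, 1 was called, as lower (25.0%, where 17.3% of all regions were called and 9.60% called lower). It lies 10.8 kb upstream and fell from 100, 77 and 84 to 39, 46 and 51 (limma adjusted p = 0.019). Without WT replicate 1, 2 or 3 it did not pass (limma adjusted p = 0.075, 0.053 and 0.0676).

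Adaptors and effectors of TEK signalling had 46 regions, of which 3 rose and 1 fell (8.70% called against 17.3% of all regions, median 0.03). Of 2 promoter regions of Akt1, the kinase downstream of TEK, 1 rose, from 72, 47 and 55 to 116, 109 and 148 (limma adjusted p = 0.0188). The other had 105, 85 and 88 in WT against 101, 95 and 77 in CSE-KO (limma adjusted p = 0.93). A region 20.3 kb into Pik3ca, a catalytic subunit of PI 3-kinase, rose from 29, 39 and 36 to 60, 72 and 92 (limma adjusted p = 0.0192). The Akt1 call ended without WT replicate 2 or 3 (limma adjusted p = 0.0719 and 0.0726) and the Pik3ca call without WT replicate 1, 2 or 3 (limma adjusted p = 0.0747, 0.0538 and 0.0657). The fall was at a region 23.9 kb upstream of Ptk2, focal adhesion kinase, from 217, 200 and 179 to 46, 38 and 46 (limma adjusted p = 0.00202). It was 4.51-fold lower. On log2(value + 1) this was the largest difference by size among the named pathway regions, at -2.17 against 2.13 for the Itga5 region. That scale understates the change of the weak Itga5 region, so their order is not firm.

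Outputs of the pathway had 29 regions, 6 higher and 1 lower (24.1% called, median 0.32). Of all regions, 17.3% were called, 7.70% higher and 9.60% lower. A region 39.2 kb upstream of Esm1, a proteoglycan of endothelial tip cells, rose from 42, 47 and 40 to 134, 95 and 121 (limma adjusted p = 0.00638). A region 9.97 kb past the start of Cited2, a transcriptional co-regulator, rose from 15, 24 and 18 to 59, 38 and 48 (limma adjusted p = 0.0148). A region 36.2 kb past the start of Apln, the peptide apelin, fell from 37, 36 and 34 to 21, 11 and 13 (limma adjusted p = 0.0177). The Cited2 call ended without WT replicate 1 or 3 (limma adjusted p = 0.0597 and 0.0609) and the Apln call without WT replicate 1, 2 or 3 (limma adjusted p = 0.0687, 0.0663 and 0.0626).

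Transcription factors with reported sites in Tek or Angpt2 regulatory DNA had 39 regions, 1 higher and 2 lower (7.69% called, median -0.25). Of all regions, 17.3% were called. A region 17.2 kb upstream of Ets1 fell from 155, 177 and 145 to 56, 46 and 69 (limma adjusted p = 0.00654). Of 2 promoter regions of Fli1, 1 rose, from 42, 56 and 28 to 74, 101 and 95 (limma adjusted p = 0.0343). The other had 38, 62 and 37 in WT against 36, 58 and 49 in CSE-KO (limma adjusted p = 0.873). The Fli1 call was lost when WT replicate 1 or 3, or CSE-KO replicate 2 or 3, was left out (limma adjusted p = 0.0982, 0.0919, 0.0791 and 0.0742). The called regions of Ets1 and Fli1 thus lay in opposite directions, with 1 of the 2 Fli1 promoter regions not called. The distal Fli1 regions, none of them called, all had a difference below 0. That 26.6 kb upstream had 59, 62 and 55 in WT against 39, 9 and 20 in CSE-KO (limma adjusted p = 0.0576). It is outside the naming rule and was chosen after its values were seen.

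**Figure D5:**
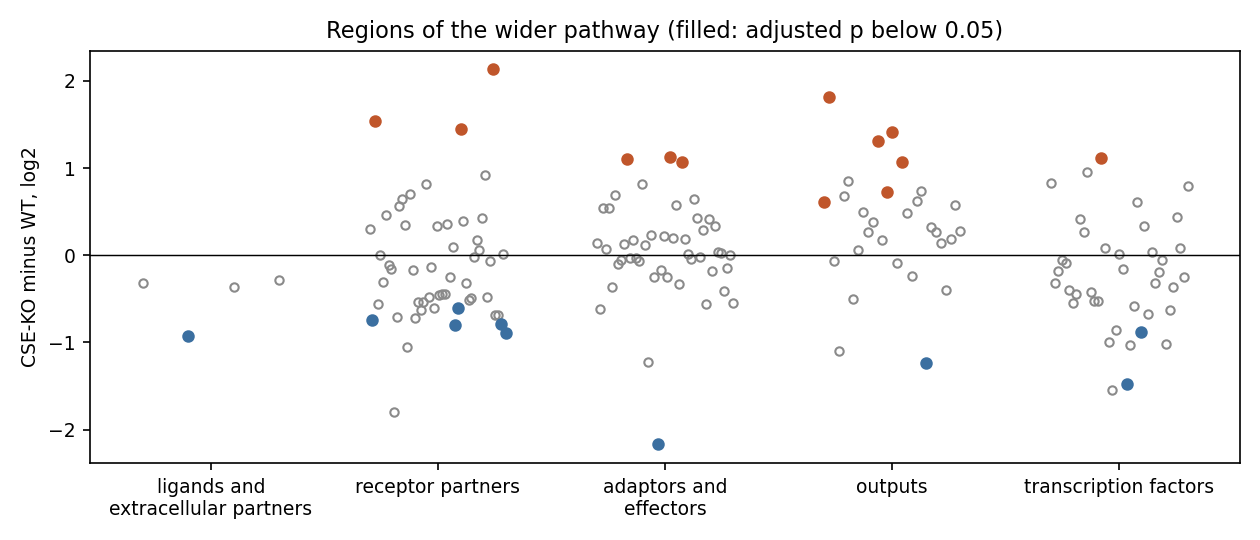
Difference (y axis, CSE-KO minus WT, log2) of each of the 170 pathway regions by group. Filled points passed the test (orange higher, blue lower) and open points did not. Calls higher and lower number 6 and 1 of 29 among outputs and 3 and 5 of 52 among receptor partners. Of all regions, 7.70% were called higher and 9.60% lower.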

How the data were processed

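The sources give 6 ATAC-seq libraries, 3 WT and 3 CSE-KO, grouped and numbered by their titles. Nothing says that they came from separate mice, and p-values cover only the spread among the 6 libraries, which may be technical. The submitters' processing notes name build mm10 and the tools DESeq2 1.26.0, Picard 3.1.1, STAR 2.7.3a and Trimmomatic 0.39. What each did, which peak caller was used and whether reads were shifted for Tn5 is not given in the sources used here. Each deposited value is handled as a score. The whole numbers have near-equal totals, and the CSE-KO columns skip low whole numbers, as rounding after division by a size factor gives. No count model was run.

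Regions with a mean of at least 5 (58129) entered a linear model of log2(value + 1) in limma 3.58.1 (R 4.3.3), using eBayes without trend or robust options and Benjamini-Hochberg adjustment. SE values come from this fit. The limma script was tested on simulated data. Promoter regions are centred within 1 kb of a start site by the authors' distance. Gene spans and promoter sequences come from RefSeq (GRCm38.p6), where 2 of the 4 genes had a promoter entry. Pathway regions were named by rule: up to 3 called regions per group by smallest p, 1 per gene. The members, gene lists and motifs were chosen with earlier results of these data known, the motifs after the files were read. Alternatives were other scalings, pseudocounts, filters and limma options, a replicate block, other gene assignments and leaving out each library.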

Additional observations from a re-analysis of the deposited data

How the results depend on the processing

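Over 16 settings each, the Tek difference stayed between 0.64 and 0.82 and the Tie1 difference between -1.44 and -1.13. Their gap stayed between 1.78 and 2.24. The within-group SDs were 0.18, 0.23 and 0.36 (log2), in that order. The filters, the limma options and the replicate block cannot move these estimates. Leaving out a single library cannot move them by as much as the within-group SD, so these ranges are no test of stability. Counts of calls moved more. With trend and robust switched on in limma, 15448 regions of the table, 12 of the 27 Angpt-Tie regions and 44 pathway regions were called. With a mean of at least 20 the last counts were 12 and 35, with fewer regions tested. With the gene symbols of the table alone they were 2 and 6, since fewer regions are assigned. Leaving out each library gave 3519 to 8922 regions of the table, 3 to 7 Angpt-Tie regions and 6 to 22 pathway regions, lowest without a WT library, and that cause was not tested. With a replicate block the counts were 6013, 4 and 13. The replicate numbers share no stated source, and deviations of same-numbered libraries correlated at -0.0059, -0.0105 and 0.0105. No pairing shows in these values, but a correlation over all regions cannot show that the samples are unpaired. With a pseudocount of 8 the Angpt-Tie count was 10 and the pathway count 34, 15 higher and 19 lower against 13 and 10. In the CSE-KO columns each read is worth more than 1 unit, which limits the weak regions.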
